A study of Mus musculus with 8 samples.

Results

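Amphiregulin, the product of Areg, is a ligand of the epidermal growth factor (EGF) receptor that group 2 innate lymphoid cells (ILC2s) release in injured tissue, where it acts on epithelium. It is made as a membrane-anchored precursor, and a protease such as ADAM17 cuts it off the cell to set the soluble ligand free. IL-33, a cytokine released by damaged epithelium, binds its receptor ST2 on ILC2s and is a known stimulus of their cytokine and Areg output; dopamine is a catecholamine transmitter given here on top of it. Areg was taken by its symbol from both tables of the study: it was 1 of 55413 genes in the bulk table and 1 of 15083 genes in the single-cell table. Of the 9076 single cells, 6187 had at least 1 Areg UMI (a unique molecular identifier, which counts 1 captured RNA molecule).

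All mice were wild-type C57BL/6, and lung ILC2s were sorted after 3 days of dosing through the nose. In bulk, 3 libraries of female mice given IL-33 plus dopamine stood against 3 of female mice given IL-33 plus PBS, the vehicle, each made with Smart-Seq2 from 2000 cells. In single cells, ILC2s of male mice carried 1 of 8 hashtags (antibody barcodes that mark the source of a cell) and were pooled before droplet capture. The authors' cell table gives hashtags 6, 7 and 8 as IL-33 plus dopamine, hashtags 3, 4 and 5 as IL-33, and hashtags 1 and 2 as PBS. The sample labels of the pool name only IL-33 with either PBS or dopamine, so a PBS group without IL-33, and with it every comparison against PBS below, rests on the names in that table. The labels do not say that a hashtag was 1 mouse, so the p-values measure the spread between hashtags. The groups asked whether dopamine changes what IL-33 does to ILC2s, and Areg is followed through them here.

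Hashtags held 311 to 1516 cells and 1397576 to 9268932 UMIs, and the PBS hashtags were the smallest. The depth of the bulk libraries is unknown, since TPM keeps no read number. The library of IL-33 plus PBS replicate 2 stood apart, with 9822 genes at 1 TPM or more where the other 5 had 10525 to 11745. In the single cells, 11 of 11 fixed ILC2 markers were detected, in 26.2% (Il13) to 98.4% (Il7r) of cells. Detection alone cannot settle the label, since some markers of other cell types were found in more cells than Il13. The 10 T cell markers measured ran from 0.0331% (Foxp3) to 79.6% of cells (Trbc2, a T cell receptor constant gene), with a median of 1.49%. Among them, Cd4 was in 0.0661%, Cd3d in 1.45%, Cd3e in 1.53%, Trac in 3.78%, Cd3g in 18.97% and Trbc1 in 73.8%. The 8 NK cell and ILC1 markers had a median of 5.64%, and the highest was Gzma, a granzyme of NK cells, in 47.5%. In bulk the summed level of 8 NK cell and ILC1 markers was 500.12 to 802 TPM in IL-33 plus dopamine libraries and 96.9 to 346 TPM in IL-33 plus PBS libraries. The sum of 5 ILC3 markers was 107 to 196 TPM in IL-33 plus dopamine libraries and 10.9 to 69.4 TPM in IL-33 plus PBS libraries, and 4 of 4 fibroblast markers were at 0 in all 6. The sum of 11 T cell markers was 1691 to 2175 TPM in IL-33 plus dopamine libraries and 1152 to 1665 TPM in IL-33 plus PBS libraries. None of these 3 marker sums overlapped between the groups. The eosinophil sum (4.42 to 5.92 against 1 to 2.61 TPM) and the endothelium sum (23.8 to 29.8 against 7.33 to 22.1 TPM) were also wholly higher with dopamine. No sum was wholly lower, and that of ILC2 markers overlapped (2217 to 3253 against 2225 to 3668 TPM). Of 11222 single genes, 23.5% were wholly higher with dopamine and 6.57% wholly lower. The part of these sums in the bulk result for Areg was not tested.

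Areg lies at chr5:91139599-91148432 on the plus strand of GRCm38 (mm10), the build of the submitters' notes, and GENCODE M21 gives it 6 exons and 1 transcript. Its neighbours on the same stretch are genes of the same ligand family. Ereg (epiregulin) ends 45952 bases before Areg, Epgn (epigen) 104383 bases before it, and Btc (betacellulin) lies 208828 bases after it. The 250 bases before the RefSeq start of Areg (GRCm38.p6, chr5:91139349-91139598, plus strand) are shown because they hold the core promoter of the gene that the results follow. Capitals mark a cAMP response element (CRE, TGACGTCA) and a TATA box (TATAAA).
Areg: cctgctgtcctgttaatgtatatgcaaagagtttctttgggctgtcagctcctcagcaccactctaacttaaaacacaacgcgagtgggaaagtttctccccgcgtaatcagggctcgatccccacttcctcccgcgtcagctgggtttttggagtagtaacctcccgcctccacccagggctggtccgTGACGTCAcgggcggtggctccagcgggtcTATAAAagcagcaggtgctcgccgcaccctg

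The CRE began 61 bases and the TATA box 31 bases before the start. In windows of 300 bases (250 before to 50 after the start, both strands searched), the CRE was found in 588 of 32851 RefSeq promoters (1.79%) and the TATA box in 13.6%. The shorter core TGACG, which the CRE contains on both strands, matched 3 times in the Areg window and at least once in 20.8% of windows. The AP-1 letters TGANTCA (in 7.81% of all windows), the kappa-B consensus of NF-kB (5.56%), the GATA motif AGATAA (11.2%) and the ROR motif AGGTCA (16.3%) had no match in this window. Of 7 EGF receptor ligand genes with a window, only Areg held the full CRE. Among listed genes of the cAMP response and AP-1, Dusp1 (a phosphatase of MAP kinases) and Maff (a small MAF transcription factor) held it as well, and 30 bases around the element, with the CRE in capitals, show that the flanks differ (Areg chr5:91139527-91139556, plus strand; Dusp1 chr17:26508597-26508626, minus strand; Maff chr15:79347480-79347509, plus strand).
Areg: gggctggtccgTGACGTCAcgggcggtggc
Dusp1: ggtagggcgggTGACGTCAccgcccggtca
Maff: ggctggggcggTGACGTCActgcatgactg

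In bulk, Areg was among the abundant transcripts of every library, ranked 148 to 226 of the genes by TPM with IL-33 plus dopamine and 155 to 160 with IL-33 plus PBS. Its level was 1142, 619 and 854 TPM in the 3 IL-33 plus dopamine libraries and 1046, 949.88 and 1145 TPM in the 3 IL-33 plus PBS libraries. The groups overlapped: IL-33 plus dopamine replicate 2 was the lowest of all 6, and replicate 1 was nearly as high as the highest IL-33 plus PBS library. The means were 872 ± 262 TPM with IL-33 plus dopamine and 1047 ± 97.3 TPM with IL-33 plus PBS (SD, n = 3 each). The log2 fold change of IL-33 plus dopamine over IL-33 plus PBS was -0.30 with an SE of 0.22 on the log2(TPM + 1) scale, and its 95% interval ran from -0.78 to 0.17. It did not pass (limma, Benjamini-Hochberg adjusted p = 0.386), where 4 of 11222 genes did (0.0356%). In bulk, fewer cells of a type and less RNA per cell cannot be told apart.

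The deposited TPM put the median of all tested genes at 0.49 higher (log2) with dopamine. Relative to that median Areg stood at -0.80, with a 95% interval of -1.28 to -0.32 that takes the median as fixed. A place below the median was not particular to Areg among abundant genes. The ribosomal protein gene Rpl19 stood at -0.52 (-0.74 to -0.29) and Srgn at -0.57 (-0.91 to -0.23). Others lay above it, such as Junb at 1.06 (0.32 to 1.81). Across 15 other settings, which include leaving out each library, the relative value of Areg stayed below 0, between -1.02 and -0.28. The relative value has no test of its own; the adjusted p of the fold change as fitted in each setting was 0.128 or more. Leaving out IL-33 plus dopamine replicate 2 brought the fold change on the deposited scale to -0.08.

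**Figure D1:**
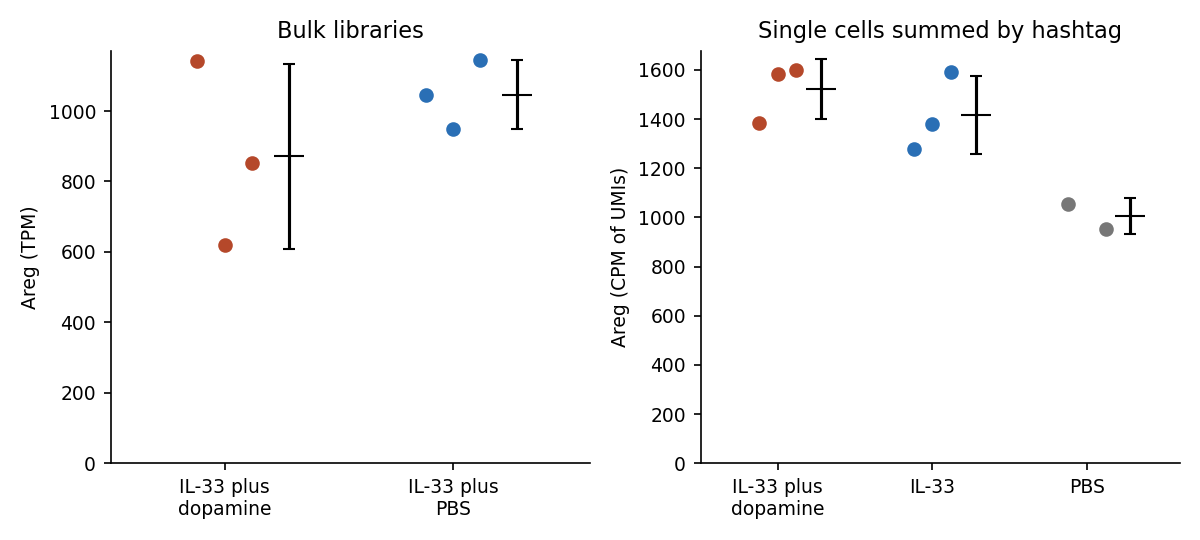
Areg in each bulk library (left, TPM) and in each hashtag of the single-cell pool (right, CPM), with coloured points for libraries or hashtags and the mean ± SD beside them in black. The bulk groups overlap, and the 6 hashtags with IL-33 lie between 1278 and 1598 CPM, above the 2 PBS hashtags at 1056 and 954 CPM.

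In the single-cell pool, Areg RNA was more abundant with IL-33 than with PBS, and adding dopamine gave no difference that passed the test. UMIs were summed over the cells of a hashtag and are given as CPM, scaled to the same total in each. The 3 IL-33 plus dopamine hashtags had 1383, 1585 and 1598 CPM, the 3 IL-33 hashtags 1278, 1381 and 1589.95 CPM, and the 2 PBS hashtags 1056 and 954 CPM. Both groups given IL-33 lay wholly above PBS, and they overlapped each other.

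For IL-33 against PBS, the means were 1416 ± 159 CPM in IL-33 hashtags (SD, n = 3) and 1005 ± 72.4 CPM in PBS hashtags (SD, n = 2). The log2 fold change was 0.46 with an SE of 0.09, a 1.38-fold higher level (edgeR quasi-likelihood test, Benjamini-Hochberg adjusted p = 0.0235). Of 10506 genes, 37 passed as higher (0.352%) and 37 as lower. Areg kept its sign in all 18 other settings, but it lost the call in several. The adjusted p was 0.106 without PBS hashtag 1 and 0.186 without PBS hashtag 2. It was 0.194 with all 8 hashtags in 1 fit and 0.107 with only cells between the 10th and 90th percentile of UMIs. Among the 6 clusters that the authors made of the cells, it was 0.0721 without cluster 0 and 0.165 without cluster 5, where the log2 fold change was 0.29. The treatments' cells lay in different clusters: cluster 5, high in Areg, held 8.88% to 22.0% of the cells of an IL-33 hashtag and 2.57% and 3.07% of those of the PBS hashtags. It held 23.7% to 42.1% of the Areg UMIs of an IL-33 hashtag and 8.401% and 7.56% of those of the PBS hashtags. As means over hashtags, clusters 2 and 3, also high in Areg, held 15.3% and 9.92% of cells with IL-33. With PBS they held 22.7% and 16.0%. Clusters 0, 1 and 4, low in Areg, held 20.4%, 27.1% and 13.1% with IL-33 and 32.3%, 15.8% and 10.4% with PBS. Clusters 2, 3 and 5 together held 39.4% ± 4.65 of cells with IL-33 (SD, n = 3). With PBS they held 41.5% ± 11.4 (SD, n = 2), and the hashtags overlapped.

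For IL-33 plus dopamine against IL-33, the means were 1522 ± 120 CPM in IL-33 plus dopamine hashtags and 1416 ± 159 CPM in IL-33 hashtags (SD, n = 3 each). The log2 fold change was 0.11 with an SE of 0.09 and a 95% interval of -0.09 to 0.31 (edgeR, adjusted p = 0.734), where 3 of 10559 genes passed, all as lower (0.0284%). The shares of clusters were not alike here either, with cluster 1, low in Areg, holding 11.7% to 21.6% of the cells with IL-33 plus dopamine and 26.2% to 27.8% with IL-33, and cluster 0 holding 25.3% to 30.4% with IL-33 plus dopamine and 16.1% to 24.4% with IL-33. Cluster 3 held 11.4% to 20.1% with IL-33 plus dopamine and 7.74% to 11.9% with IL-33, and cluster 5 held 1.76% to 14.2% with IL-33 plus dopamine and 8.88% to 22.0% with IL-33. The sign turned to -0.025 without cluster 1, to -0.079 without cluster 3 and to -0.11 when each cluster had equal weight. For IL-33 plus dopamine against PBS, the log2 fold change was 0.57 with an SE of 0.10 and a 95% interval of 0.35 to 0.78. It did not pass (edgeR, adjusted p = 0.685), in a comparison where 0 of 10612 genes passed by edgeR or DESeq2 and 545 (5.14%) had an unadjusted p under 0.05; that of Areg was 0.000111. The last 2 comparisons share hashtags with the first.

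The level is made up of 2 readings of a cell: whether it had any Areg UMI, and how many. The share of cells with an Areg UMI was 67.8%, 73.1% and 71.3% in the IL-33 plus dopamine hashtags, 68.5%, 64.1% and 67.8% in the IL-33 hashtags and 65.9% and 61.6% in the PBS hashtags. Because median depth ran from 4201 to 5692 UMIs, every cell was also thinned at random to 2500 UMIs, which left out 84 shallower cells (42 with IL-33 plus dopamine, 27 with IL-33 and 15 with PBS). The thinned share was 61.5% ± 2.56 with IL-33 plus dopamine (SD, n = 3), 55.6% ± 1.26 with IL-33 (SD, n = 3) and 54.3% ± 3.57 with PBS (SD, n = 2). After thinning the IL-33 plus dopamine hashtags did not overlap the IL-33 hashtags, with a difference of 5.90 percentage points and an exact two-sided permutation p of 0.1, the smallest that 3 against 3 can give. Before thinning these groups did overlap, with a difference of 3.95 points and an exact permutation p of 0.2. IL-33 and PBS hashtags overlapped in both readings (exact permutation p = 0.7 after thinning and 0.3 before).

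The amount per positive cell was highest in both groups given IL-33. Positive cells held 11.05 ± 1.32 Areg UMIs with IL-33 plus dopamine (SD, n = 3), 12.2 ± 1.00 with IL-33 (SD, n = 3) and 7.07 ± 0.178 with PBS (SD, n = 2). Thinned to 2500 UMIs, positive cells held 5.71 ± 0.106 with IL-33 plus dopamine, 5.81 ± 0.435 with IL-33 and 4.39 ± 0.0599 with PBS. IL-33 exceeded PBS without overlap, by 1.42 UMIs, at the smallest exact permutation p of 0.1 that 3 against 2 allow. IL-33 plus dopamine and IL-33 differed by -0.10 UMIs (exact permutation p = 0.9). The share depended on where positive was set. With at least 2 UMIs required and no thinning, it was 56.7% ± 2.58 with IL-33 plus dopamine, 51.8% ± 2.55 with IL-33 (SD, n = 3 each) and 44.5% ± 2.58 with PBS (SD, n = 2). None of the groups overlapped there, and IL-33 exceeded PBS by 7.31 points (exact permutation p = 0.1). With 2 or 3 hashtags a group, none of these permutation tests could reach 0.05.

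**Figure D2:**
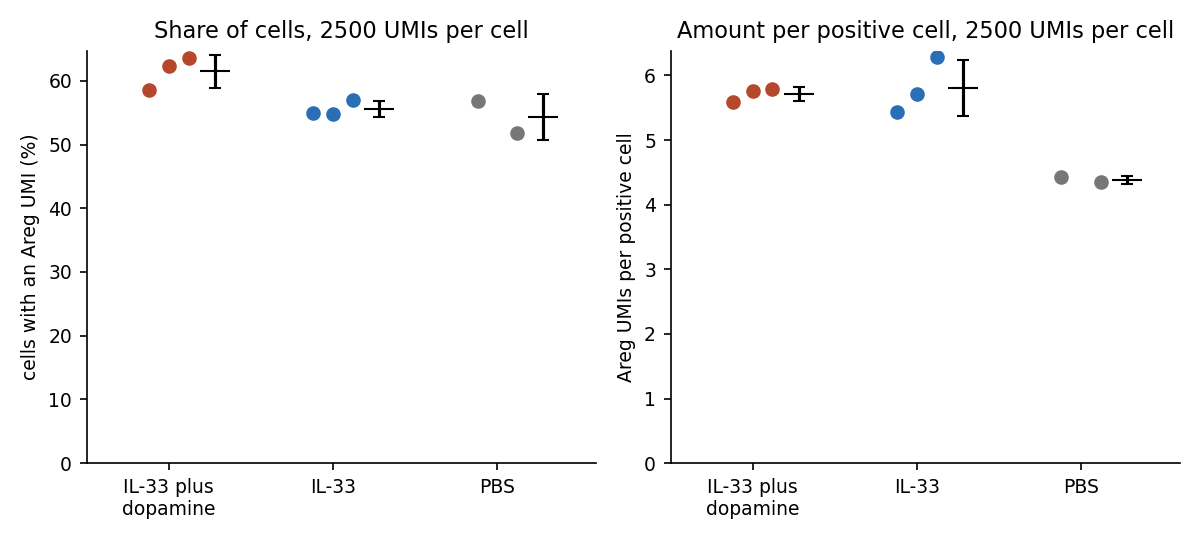
Share of cells with an Areg UMI (left, percent) and mean Areg UMIs per positive cell (right), after every cell was thinned to 2500 UMIs; points are hashtags and black marks the mean ± SD. The thinned share is 58.6% to 63.5% with IL-33 plus dopamine and 54.7% to 57.0% with IL-33, and the amount per positive cell is 5.43 to 6.28 UMIs with IL-33 and 4.34 to 4.43 with PBS.

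Areg was spread unevenly over cells. Of all cells 31.8% had no Areg UMI, 33.1% had 1 to 4 and 11.1% had 20 or more, with 329 in the highest cell. The 10% of cells with most held 57.0% of all Areg UMIs. Cells with 20 or more UMIs made up 11.5% with IL-33 plus dopamine, 12.2% with IL-33 and 4.91% with PBS, at depths that were not equal. Scgb1a1, the secretoglobin of airway club cells that ILC2s should lack, gave a measure of free RNA in the droplets: it was found in 30.5% to 37.1% of cells in every cluster, at 1.34 to 1.39 UMIs per positive cell. Ighm, an immunoglobulin gene of B cells, was less even, in 18.9% (cluster 3) to 38.8% (cluster 4) of cells. Areg ran from 45.0% to 94.2% over the same clusters, at 4.77 to 19.6 UMIs per positive cell, with median depths of 4082 to 8142 UMIs per cluster.

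Areg was concentrated in 3 of the authors' 6 clusters. Because the clusters were made from the RNA of these same cells, levels by cluster are a description and carry no test. Over hashtags, the median level was 3211 CPM in cluster 3, 1998 CPM in cluster 5, 1937 CPM in cluster 2, 727 CPM in cluster 0, 564 CPM in cluster 4 and 406 CPM in cluster 1. Clusters 3, 5 and 2 had overlapping ranges, from 1160.01 to 3627 CPM. Clusters 0, 4 and 1 lay between 337 and 885 CPM, also overlapping one another, and below the other 3 in every hashtag. Cluster 3 ranked first in 7 of 8 hashtags; in hashtag 1, a PBS hashtag whose cluster 5 held 8 cells, cluster 5 ranked first. Clusters 2, 3 and 5 held 33.4% to 49.5% of the cells of a hashtag and 68.0% to 83.2% of its Areg UMIs. Areg also went with depth: within hashtags its mean level was 786 CPM in the lowest quartile of cells by UMIs and 1732 CPM in the highest. By percent of mitochondrial UMIs it was 1515 CPM in the lowest quartile and 1049 CPM in the highest. The part of depth and mitochondrial share in the cluster levels was not tested.

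**Figure D3:**
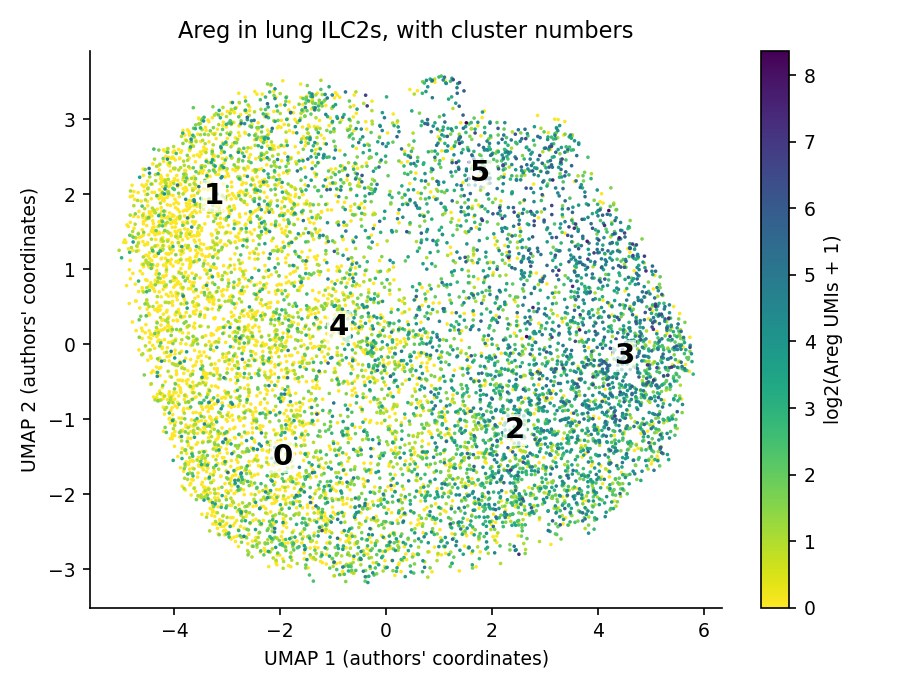
Each point is 1 of 9076 cells at the authors' UMAP coordinates, coloured by log2(Areg UMIs + 1), with cluster numbers at the median position of each cluster. The cells with most Areg lie on the right, in clusters 2, 3 and 5, and cells at 0 crowd the left, in clusters 0 and 1.

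Within clusters, IL-33 raised Areg most plainly in clusters 2 and 3. In cluster 2 the level was 1979.91, 2094 and 2258 CPM in the IL-33 hashtags and 1294 and 1336 CPM in the PBS hashtags. The log2 fold change was 0.70 with an SE of 0.07, a 1.63-fold higher level (edgeR, adjusted p = 1.22e-05), where 4 of 6639 genes passed as higher (0.0603%). In cluster 3 the level was 3324, 3627 and 3104 CPM in the IL-33 hashtags and 1517 and 2217 CPM in the PBS hashtags. The log2 fold change was 0.84 with an SE of 0.11, a 1.79-fold higher level (edgeR, adjusted p = 0.00275), where 3 of 5731 genes passed as higher (0.0523%). Neither call was lost when any hashtag was left out; the highest adjusted p was 0.00110 in cluster 2 and 0.0447 in cluster 3.

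In the other clusters the IL-33 comparison did not pass. The log2 fold changes over PBS were 0.31 (95% interval 0.11 to 0.51) in cluster 0, 0.34 (0.06 to 0.62) in cluster 4 and -0.04 (-0.31 to 0.24) in cluster 1, with edgeR adjusted p-values of 0.478, 0.617 and 0.979, where 0.095%, 0.138% and 0.286% of genes passed. Without PBS hashtag 1, cluster 0 did pass, at a log2 fold change of 0.49 (adjusted p = 0.0154). In cluster 4 the groups did not overlap, at 548, 580 and 535 CPM in the IL-33 hashtags and 337 and 480 CPM in the PBS hashtags. Cluster 5 was not tested against PBS, because hashtag 1 had 8 of its cells there and 10 were required. Its levels overlapped, at 1774, 2291 and 2618 CPM in the IL-33 hashtags and 2400 and 1939 CPM in the PBS hashtags. The means were 2228 ± 425 CPM with IL-33 (SD, n = 3) and 2169 ± 326 CPM with PBS (SD, n = 2).

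The test of the difference itself gave 2 answers for IL-33 against PBS. In 1 edgeR fit over hashtag-by-cluster sums, with the hashtag as a block and cluster-by-treatment terms for clusters 0 to 4, the change of Areg differed between clusters (adjusted p = 0.00605, where 14 of 8205 genes passed, 0.171%). Cluster 3 exceeded the mean of the other 4 by 0.51 with an SE of 0.11 (log2, adjusted p = 0.0195; 0.0975% of genes passed). Cluster 1 fell short of the others by -0.57 with an SE of 0.14, which did not pass (adjusted p = 0.266; 0.0122% of genes passed). An exact permutation over hashtags of the level in cluster 3 minus that in all other cells gave a difference of 0.37 and p = 0.4, with 0.1 as the smallest possible. The joint fit was added after the data were seen.

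IL-33 plus dopamine was likewise above PBS in clusters 2 and 3, where the test passed. In cluster 2 the levels were 2221, 1796 and 1895 CPM with IL-33 plus dopamine and 1294 and 1336 CPM with PBS, a log2 fold change of 0.58 with an SE of 0.08 (edgeR, adjusted p = 0.000910). Areg was the only 1 of 7002 genes to pass there (0.0143%). In cluster 3 the levels were 2851, 3505 and 3318 CPM with IL-33 plus dopamine and 1517 and 2217 CPM with PBS, a log2 fold change of 0.77 with an SE of 0.12 (edgeR, adjusted p = 0.0141; 0.0466% of genes passed as higher). The cluster 3 call was lost without PBS hashtag 1 (adjusted p = 0.389), without hashtag 7 (0.479) and without hashtag 8 (0.0532), while that in cluster 2 held with any hashtag left out, at adjusted p-values up to 0.0218. In cluster 4 the levels were 604 to 679.6 CPM with IL-33 plus dopamine and 337 and 480 CPM with PBS, without overlap, and the log2 fold change of 0.56 (95% interval 0.24 to 0.88) did not pass (edgeR, adjusted p = 0.273; 0.115% of genes passed). It was 0.14 in cluster 0 (-0.08 to 0.37, adjusted p = 0.876; 0.025% of genes passed) and 0.20 in cluster 1 (-0.15 to 0.55, adjusted p = 0.889; 0% of genes passed, with 6.61% at an unadjusted p under 0.05). Cluster 5 was not tested here either, and its levels overlapped, at 2057, 1927 and 1160 CPM with IL-33 plus dopamine and 2400 and 1939 CPM with PBS. Both PBS comparisons share hashtags 1 and 2.

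Dopamine on top of IL-33 gave no passing change of Areg in any cluster, by edgeR. The log2 fold changes of IL-33 plus dopamine over IL-33 were -0.12 in cluster 2 (95% interval -0.25 to 0.02) and -0.07 in cluster 3 (-0.24 to 0.10). They were -0.17 in cluster 0 (-0.34 to 0.01), 0.25 in cluster 1 (-0.02 to 0.52) and 0.20 in cluster 4 (0.03 to 0.37, unadjusted p = 0.0248, adjusted p = 0.718). The cluster 4 levels did not overlap, at 662, 680 and 604 CPM with IL-33 plus dopamine and 548, 580 and 535 CPM with IL-33. Of the genes tested, 0% passed in clusters 2 and 3 by edgeR (5.89% and 5.39% at an unadjusted p under 0.05), 0.0388% in cluster 0, 0.075% in cluster 1, 0.0548% in cluster 4 and 0.266% in cluster 5. In cluster 5 the levels were 2057, 1927 and 1160.01 CPM with IL-33 plus dopamine and 1774, 2291 and 2618 CPM with IL-33. That log2 fold change was -0.36 with an SE of 0.14 and a 95% interval of -0.65 to -0.07, with an unadjusted p of 0.0157 (under 0.05 for 8.36% of genes) and an adjusted p of 0.458. The lowest of these values came from hashtag 8, which had 26 cells in cluster 5. The joint fit did not pass for a difference between clusters (unadjusted p = 0.00446, adjusted p = 0.429, where 0.0686% of genes passed). In it cluster 5 stood at -0.36 against the mean of the others (unadjusted p = 0.00268, adjusted p = 0.269; 0.194% of genes passed). By exact permutation over hashtags, the level minus that in all other cells differed by -0.68 in cluster 5 and by -0.34 in cluster 0, each at p = 0.1, the smallest possible.

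**Figure D4:**
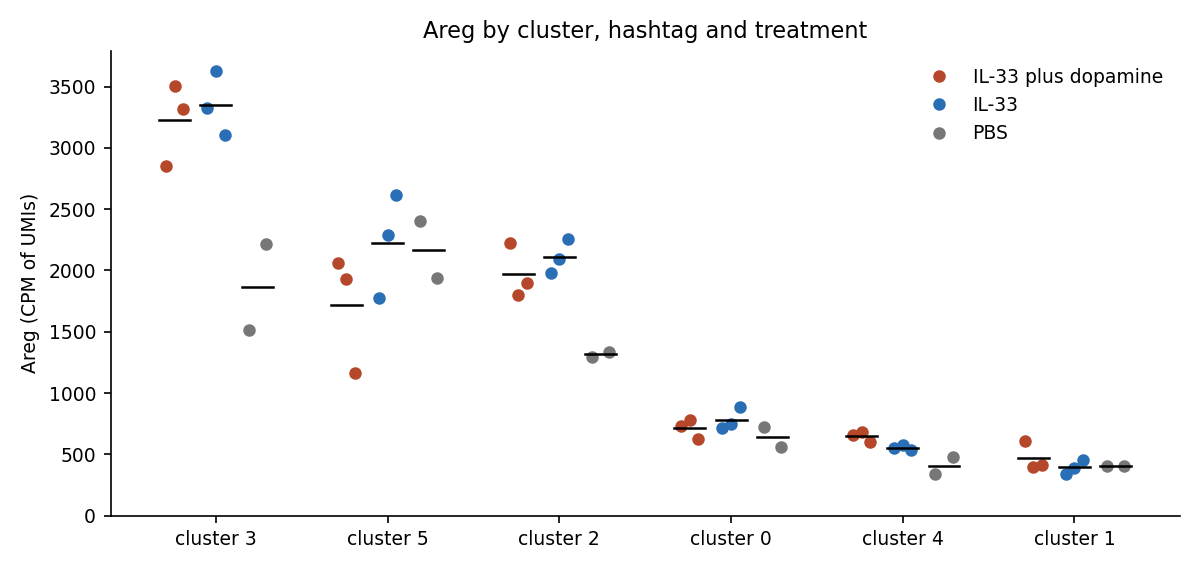
Areg in each cluster, in CPM, ordered by level; each point is 1 hashtag, colours give the treatment and black bars the mean. In clusters 3 and 2 all 6 hashtags with IL-33 (1796 to 3627 CPM) lie above the 2 PBS hashtags of the same cluster, and with and without dopamine they overlap. In cluster 4 all 6 (535 to 680 CPM) also lie above PBS (337 and 480 CPM), and those with dopamine lie above those without.

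Areg was the abundant member of its ligand family. Of 11 EGF receptor ligands, 2 reached the TPM filter in bulk and 3 the count filter in single cells, and the others were at or near 0. Hbegf, the heparin-binding ligand, was the next in bulk, at 6.98, 6.12 and 10.2 TPM with IL-33 plus dopamine and 2.52, 2.14 and 2.01 TPM with IL-33 plus PBS. Those groups did not overlap, as was so for 23.5% of all genes on the higher side and 6.57% on the lower, and the change did not pass (log2 fold change 1.42 with an SE of 0.49, limma adjusted p = 0.139). In single cells Hbegf did not repeat that order, at 6.46 ± 3.55 CPM with IL-33 plus dopamine and 7.99 ± 1.21 CPM with IL-33 (SD, n = 3 each), with a log2 fold change of -0.29 (edgeR, adjusted p = 0.813). The highest bulk level in any library was 1.04 TPM for Ereg, 0.59 TPM for Btc, 1.08 TPM for Tgfa (transforming growth factor alpha), 0.29 TPM for Egf and 3.12 TPM for Nrg1 (neuregulin 1). Epgn and Nrg2 were at 0 in all 6 bulk libraries, and Nrg3 reached 0.17 TPM and Nrg4 2.03 TPM. The receptors were low as well. Egfr, the receptor Areg binds, was at 0.20, 0 and 0 TPM with IL-33 plus dopamine and 3.48, 0.06 and 0 TPM with IL-33 plus PBS, and Erbb2, Erbb3 and Erbb4 reached at most 1.80 TPM.

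The genes that process the precursor were present and did not pass in any comparison (0 of 7 tested in each of the 4, limma or edgeR). At an unadjusted p under 0.05 there were 1, 1, 0 and 1 in the bulk comparison, IL-33 plus dopamine against IL-33, IL-33 against PBS and IL-33 plus dopamine against PBS, and DESeq2 called none in single cells. Of all genes, 24.1%, 9.47%, 13.4% and 5.14% had such a p in those comparisons. Adam17, the main sheddase of amphiregulin, was at 16.9, 15.7 and 14.5 TPM with IL-33 plus dopamine and 21.9, 14.6 and 5.91 TPM with IL-33 plus PBS. Adam10, a related sheddase, was at 20.7, 19.5 and 20.7 TPM with IL-33 plus dopamine and 14.5, 2.84 and 4.18 TPM with IL-33 plus PBS, with a log2 fold change of 1.65 (limma, adjusted p = 0.135). The lowest 2 Adam10 values were IL-33 plus PBS replicates 2 and 3. Furin, which activates the sheddases, was the most abundant of the list, at 550.3 ± 63.3 CPM with IL-33 plus dopamine, 537 ± 61.2 CPM with IL-33 (SD, n = 3 each) and 504 ± 47.6 CPM with PBS (SD, n = 2). Adam8 was at 18.6 ± 4.59 CPM with IL-33 plus dopamine and 30.1 ± 9.77 CPM with IL-33 (SD, n = 3 each; edgeR, adjusted p = 0.404). In bulk, Adam9 reached 14.1 TPM, and Rhbdf2 and Frmd8, cofactors of ADAM17, reached 20.03 and 65.7 TPM. Rhbdf1 reached 7.14 TPM, and Timp3, an inhibitor of ADAM17, 2.19 TPM.

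Across 152 genes of 13 lists of related biology, Areg was 1 of 11 that passed for IL-33 against PBS. Of 126 tested, 5 passed as higher and 6 as lower (edgeR), where 0.352% of all genes passed in each direction. At an unadjusted p under 0.05 there were 50 (39.7%), where 13.4% of all genes were. The lists were chosen with earlier results of these data known, so these shares are a description. Beside Areg the higher ones were Csf2 (the cytokine GM-CSF), at 1488 ± 141 CPM in IL-33 hashtags and 971 ± 157 CPM in PBS hashtags (SD, n = 3 and n = 2; log2 fold change 0.58, adjusted p = 0.0127), and 3 genes of cell division, Mki67, Ccnb2 and Stmn1. The cell division genes were scarce, with Mki67 at 10.4 CPM and Stmn1 at 23.9 CPM in IL-33 hashtags, against 3.19 and 11.8 CPM in PBS hashtags. Ccnb2 was at 6.29 CPM in IL-33 hashtags, against 0 and 0.596 CPM in the PBS hashtags. DESeq2 gave these 3 genes no adjusted p, as it did 7333 of 10506 genes. The lower ones were Icos (a co-stimulatory receptor of ILC2s, log2 fold change -0.76, adjusted p = 0.00684), Sik1 (a cAMP-induced kinase, -0.48, adjusted p = 0.0363) and 4 of 10 tested AP-1 genes. These were Atf3 (-0.84), Jund (-0.48), Fosb (-0.42) and Junb (-0.41), with adjusted p-values of 0.0119 to 0.0343. The AP-1 list had a median log2 fold change of -0.35, where all genes had 0.00. Of the 9 tested genes of ILC2 cytokines, Csf2 was the 1 that passed, and the list median was 0.14. DESeq2 called 16 list members in this comparison. Over all genes, it called 119 of the 3173 to which it gave an adjusted p (3.75%). The 16 list members were the other 8 of these 11, together with Nr4a1, Nfkb1, Rora, Maff, Nfkbid, Egr3, Dusp5 and Zfp36l1. Like Areg, none of the 11 genes passed with all 8 hashtags in 1 fit, where 0 genes passed. With dopamine, no list member passed in bulk (0 of 131, limma, 65 at an unadjusted p under 0.05, where 24.1% of all genes were), against IL-33 (0 of 127, edgeR; 31 unadjusted, where 9.47% of all genes were) or against PBS (0 of 128, edgeR; 9 unadjusted, 7.03% where 5.14% of all genes were). DESeq2 called 4 of them for IL-33 plus dopamine against IL-33, where it called 26 genes in all (0.246%), namely Icos, Klrg1, Ccnb2 and Ube2c, and none against PBS.

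The genes most like Areg across single cells were ranked by correlation. Spearman's rho was computed within each hashtag over cells thinned to 2500 UMIs and averaged over the 8 hashtags, for 2806 genes and 8992 cells; all points share 1 droplet pool and the hashtag's depth, and the values are a description. The 12 genes most like Areg were Rora, the nuclear receptor that ILC2 development needs (0.34, with 0.28 to 0.37 over hashtags), Hilpda, a lipid droplet protein (0.33), Srgn, the granule proteoglycan serglycin (0.32), Sub1 (0.31) and Pim1, a kinase (0.31). They went on with the NF-kB inhibitor Nfkbia (0.30), the NF-kB subunits Rel (0.30) and Nfkb1 (0.28), the nuclear receptors Nr4a3 (0.28) and Nr4a1 (0.27), Junb of AP-1 (0.28) and Samsn1 (0.27). For scale, 34 genes had a mean rho above 0.2, the median over genes was -0.01 and the 99th percentile 0.21. The 8 lowest were Zfp36l2, which promotes mRNA decay (-0.17), Hspa8 (-0.17), Txnip (-0.15), Pnisr (-0.15), Apobec3 (-0.13), Gm42418 (-0.13) and the ribosomal protein genes Rpl13a (-0.12) and Rpl19 (-0.12).

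Most of this likeness lay between clusters. Within clusters the rho of the 12 genes was 0.04 (Nfkb1) to 0.15 (Srgn), and 6 of the 12 stayed among the 12 highest there, values too weak in sparse counts to rank. All 12 had their highest level in cluster 3 or cluster 2 and their lowest in cluster 1 or cluster 4. Hilpda, for example, averaged 3184 CPM in cluster 3 and 251 CPM in cluster 1, and Rel 885 and 66.0 CPM. Of the 12, 11 had a promoter window in the table, and 0 of these held the full CRE; 7 held the shorter core TGACG, which 23.0% of all genes with a window held, and 3 held the NF-kB consensus, which 6.31% of genes held. Over 47 sums of a hashtag and a cluster (4924 genes), the genes most like Areg by Pearson's r on log2(CPM + 10) were Plscr1 (0.94), Mpp7 (0.93), Cdkn1a (0.92), Rel (0.92), Cxcl2 (0.92), Traf4 (0.92), Lilrb4a (0.91) and Nr4a3 (0.91). With cluster means removed, that r was 0.67 for Plscr1 (a scramblase induced by interferon), 0.38 for Cxcl2 (a chemokine) and -0.32 for Rel.

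The genes most like Areg across cells had estimates of the opposite sign under IL-33. For IL-33 against PBS all 12 had a log2 fold change below 0, from -0.44 (Nr4a3) to -0.15 (Pim1), where that of Areg was 0.46 and 50.3% of all genes were below 0. Of the 12, edgeR passed Junb alone (adjusted p = 0.00855) and DESeq2 passed 5, namely Junb, Rora, Nr4a1, Nfkb1 and Sub1. Junb was at 3868, 3514 and 3854 CPM in the IL-33 hashtags and 5224 and 4507 CPM in the PBS hashtags. Rora was at 1598, 1556 and 1614 CPM in the IL-33 hashtags and 2112 and 1777 CPM in the PBS hashtags, without overlap (log2 fold change -0.33, edgeR adjusted p = 0.0514, DESeq2 adjusted p = 0.0338). For IL-33 plus dopamine against IL-33, which shares the IL-33 hashtags, all 12 were above 0, from 0.07 (Pim1) to 0.42 (Nr4a3), and by edgeR 0 of 12 passed. All 12 were highest in cluster 3 or cluster 2, so their signs are not 12 separate readings. As means over hashtags, clusters 3 and 2 held 9.92% and 15.3% of the cells with IL-33. They held 16.2% and 20.5% with IL-33 plus dopamine and 16.0% and 22.7% with PBS. The part of these shares in the estimates was not tested. In bulk, 7 of the 12 were above and 5 below the median of all genes, and 0 passed by limma. Nr4a1 averaged 1904 TPM with IL-33 plus dopamine and 605 TPM with IL-33 plus PBS, with no overlap and a limma adjusted p of 0.0832.

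**Figure D5:**
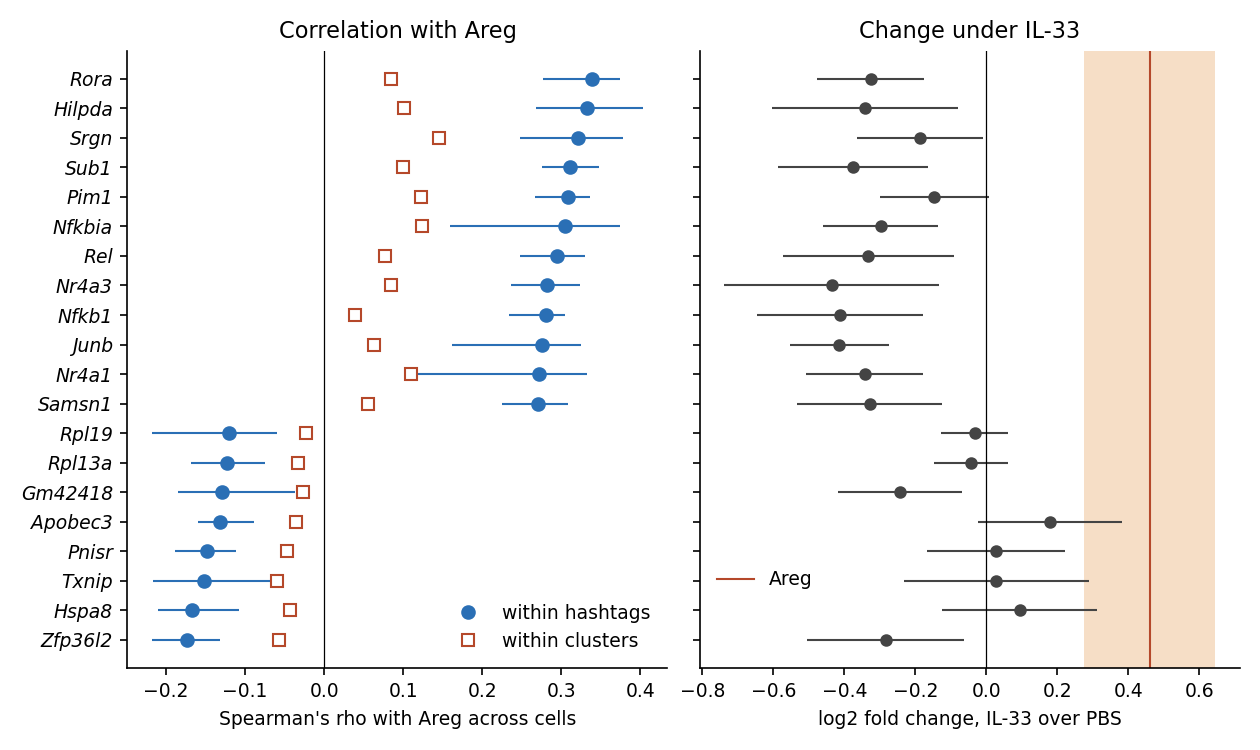
Left, Spearman's rho with Areg across cells for the 12 most and 8 least alike genes, as the mean over hashtags with the range of the 8 (circles and lines) and as the mean within clusters (squares). Right, the log2 fold change of the same genes for IL-33 over PBS with 95% intervals, beside Areg (red line and its interval as a band): the 12 most alike genes lie between -0.44 and -0.15, and Areg at 0.46.

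Among the partners fixed for co-detection, the type 2 cytokines went with Areg. Over cells thinned to 2500 UMIs, 5211 had an Areg UMI and 3781 had none. Il5, which drives eosinophils, was detected in 33.6% of Areg-positive cells and 17.3% of Areg-negative cells, as a mean over hashtags, and Il13, which drives mucus, in 23.3% of positive and 13.0% of negative cells. Both were higher in positive cells in 8 of 8 hashtags, Il5 in 6 of 6 clusters and Il13 in 5 of 6. Csf2 was detected in 59.3% of positive and 43.5% of negative cells, and Calca, the gene of the neuropeptide CGRP, in 58.4% of positive and 46.8% of negative cells, again in 8 of 8 hashtags. Il4 was at 8.39% of positive and 6.49% of negative cells, and Il6 at 2.03% of positive and 0.937% of negative cells. Il2 was at 22.4% of positive and 19.3% of negative cells, and Il9 at 0.0765% of positive and 0.0424% of negative cells. Il10 was not measured in the single cells.

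Genes of cell state were split. Crem, a factor of the cAMP response, was in 39.3% of positive and 23.5% of negative cells, Icos in 46.4% of positive and 34.6% of negative cells and Gata3, the master regulator of ILC2s, in 81.0% of positive and 71.4% of negative cells, each in 8 of 8 hashtags. Each of these 3 was higher in positive cells in 4 of 6 clusters. Klrg1, a receptor of mature ILC2s, was in 23.4% of positive and 23.3% of negative cells, and Zfp36, which promotes decay of cytokine mRNA, in 40.1% of positive and 39.8% of negative cells. Tnf was in 5.16% of positive and 6.81% of negative cells and Arg1, arginase 1, in 34.4% of positive and 36.7% of negative cells, each higher in positive cells in 1 of 8 hashtags. Tcf7, a factor of progenitors, was in 3.54% of positive and 3.30% of negative cells. The receptor of IL-33, Il1rl1, was in 80.4% of positive and 76.8% of negative cells, and Nmur1, the neuromedin U receptor, in 0.319% of positive and 0.811% of negative cells. Nr4a1 was in 90.1% of positive and 77.5% of negative cells, and Junb in 98.8% of positive and 97.0% of negative cells. Il7r was in 92.4% of positive and 93.4% of negative cells, and Mki67 in 1.40% of positive and 0.983% of negative cells.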

How the data were processed

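The authors trimmed reads with cutadapt 2.10, aligned with STAR 2.7.5c and quantified with RSEM 1.3.3, and processed droplets with Cell Ranger 6.1.1 and Seurat 4.0.2, on mm10, per the submitters' processing notes. The deposited bulk values are TPM, scaled by the authors to a library total; the deposited single-cell values are UMI counts per gene and cell. Hashtag, treatment, cluster, the percent of mitochondrial UMIs and UMAP scores are the authors', as deposited. No doublet caller was run; what the authors did about doublets is not stated in the labels.

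In bulk, the test was limma 3.58.1 on log2(TPM + 1), for genes that reached 1 TPM in 3 or more libraries. Summed counts per hashtag were tested with edgeR 4.0.16 (TMM, filterByExpr), also within clusters; DESeq2 1.42.0 was an alternative. P-values were adjusted over all genes of a comparison (Benjamini-Hochberg, threshold 0.05). Shares and amounts were compared by exact two-sided permutation over hashtags. Intervals are of counting or fitting error only. The steps were tested on simulated data: for IL-33 against PBS, edgeR recovered 55 of 100 genes changed 1.5-fold and 97 of 100 changed 2-fold. The gene lists, Areg itself and the named genes (Areg, its family and shedding genes, list members that passed, the most and least alike genes and the co-detection partners) were chosen with earlier results of these data known. Sequences are from RefSeq (GRCm38.p6), genes from GENCODE M21. Alternatives covered normalization, filters, pseudocounts, thinning, clusters and each library or hashtag left out.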

Additional observations from a re-analysis of the deposited data

Results flagged for a closer look

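The change of Areg under IL-33 differed between clusters by 1 of 2 tests, a joint fit added after the data were seen. In it, for IL-33 against PBS, cluster 3 exceeded the mean of clusters 0, 1, 2 and 4 by 0.51 on the log2 scale with an SE of 0.11 (edgeR with the hashtag as a block, adjusted p = 0.0195). The exact permutation over hashtags gave p = 0.4. Tested alone, cluster 3 changed by 0.84, cluster 2 by 0.70 and cluster 1 by -0.04. The PBS side of cluster 3 rests on 64 and 85 cells, and its 2 hashtags lay at 1517 and 2217 CPM.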

How the results depend on the processing

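The bulk value of Areg kept its sign and missed the threshold in all 15 alternatives, at -0.85 to -0.08 on the log2 scale. The number of bulk genes past the threshold was 4, and it was 2 with a pseudocount of 5 or a mean TPM of at least 5, 0 with no filter, 21 with quantile normalization, 2800 with array weights and 0 to 1152 with each library left out. With a replicate block 15 bulk genes passed and Areg stood at -0.30 (limma, adjusted p = 0.352). Same-numbered libraries deviated with correlations of 0.019, -0.071 and -0.0018. The labels do not say whether the numbers pair mice, and with 3 libraries a group these correlations cannot settle it. For IL-33 plus dopamine against IL-33, 3 genes passed, 26 with DESeq2, 9 between the 10th and 90th percentile of UMIs, 7 after thinning and 1 to 16 with each hashtag left out. Areg in that comparison turned to -0.025 without cluster 1, -0.079 without cluster 3 and -0.11 with equal weight for each cluster (exact permutation p = 0.3), and ran from 0.04 to 0.20 with each hashtag left out. For IL-33 against PBS, 74 genes passed, 119 with DESeq2, 322 with no filter, 0 with all 8 hashtags in 1 fit, 34 between the 10th and 90th percentile of UMIs and 5 to 124 with each hashtag left out. At 0 genes, Areg had an edgeR adjusted p of 0.194. Areg in that comparison was 0.46 with all 8 hashtags, 0.33 between those percentiles, 0.37 without cluster 0, 0.29 without cluster 5, 0.47 with equal weight for each cluster (exact permutation p = 0.1, the smallest possible) and 0.37 to 0.54 with each hashtag left out. For IL-33 plus dopamine against PBS, 0 to 2 genes passed with each hashtag left out.

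Within clusters and with each hashtag left out, values crossed 0 in cluster 3 for IL-33 plus dopamine against IL-33 (-0.13 to 0.021), in cluster 1 for IL-33 against PBS (-0.17 to 0.076, and 0.05 without IL-33 hashtag 3), and for IL-33 plus dopamine against PBS in cluster 0 (-0.040 to 0.31) and cluster 1 (-0.017 to 0.32). Cluster 0 ran from 0.12 to 0.49 for IL-33 against PBS and cluster 3 from 0.54 to 1.09 for IL-33 plus dopamine against PBS. In 1 joint fit in place of the permutation, the cluster difference was 0.51 in cluster 3 for IL-33 against PBS, -0.018 in cluster 3 for IL-33 plus dopamine against IL-33 and 0.16 in cluster 2 for IL-33 plus dopamine against PBS. Of the 12 genes most like Areg, 6 were shared within clusters. The cause of these changes was not tested. On simulated data, genes changed 1.5-fold were recovered in 85 of 100 cases for IL-33 plus dopamine against IL-33 and 55 of 100 for IL-33 against PBS. Genes changed 2-fold were recovered in 77 of 100 cases in bulk. The simulated spread was the same for all genes and not fitted to these data, so real recovery can differ. The read depth of the bulk libraries is unknown.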
